A study of Homo sapiens with 6 samples.

Results

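The genes that build, sulfate and trim heparan sulfate and chondroitin sulfate were compared between HFL-1 fibroblasts infected with a HYAL1 lentivirus and HFL-1 fibroblasts infected with the control vector CON335. HFL-1 cells are a line of fibroblasts established from human fetal lung, and each group had 3 samples, hybridised to 1 PrimeView array each. A list of 39 genes was taken by role, and 35 of them had a probe set with exactly 1 gene symbol, out of 15277 genes in all. A gene with several such probe sets was read by the one with the highest mean over the 6 arrays. NDST2, HS6ST2 and HPSE were not analysed here, and HS3ST3A1 was read only by a probe set that it shares with HS3ST3B1. Both groups carried a lentiviral vector, and the cells were transiently infected in the presence of polybrene, in a line that was grown in culture throughout. By label the groups differed in the insert, and whether they also differed in infection was not tested. The titles call the replicates biological, but the sources used do not say how each was prepared, and the p-values therefore measure the spread between these samples.

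Heparan sulfate and chondroitin sulfate are long sugar chains on the core proteins of proteoglycans. Both grow from the same linkage sugars, after which exostosins extend heparan sulfate and chondroitin synthases extend chondroitin sulfate, and sulfotransferases and epimerases then write a pattern of charges along the chain. That pattern decides which growth factors, chemokines and matrix proteins a chain can hold, and in lung mesenchyme such chains present fibroblast growth factors and organise the extracellular matrix. The extracellular sulfatases SULF1 and SULF2 can still remove sulfate once the chain is at the cell surface. HYAL1 is a lysosomal hyaluronidase, which cuts hyaluronan and can also cut chondroitin sulfate.

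The labels were first checked against HYAL1 itself. HYAL1 had log2 values of 4.81, 4.82 and 4.67 on the 3 arrays labelled HYAL1 overexpression, and of 7.48, 7.49 and 7.46 on the 3 arrays labelled control. The group labelled control was thus the higher one, by 2.71 log2 units (standard error, SE, 0.0455; adjusted p = 7.78e-07; limma), the opposite of the engineered direction. A gene table published with the study heads the same arrays the other way round. Groups are therefore named by their deposited labels, as HYAL1-labelled and control-labelled arrays, and every direction below is by label. All 12 fibroblast markers lay above the median of the 9 background probe sets of the array (6.69 to 6.90 on the log2 scale), and so did 1 of 7 endothelial and 1 of 6 leukocyte markers in both groups, 3 of 7 epithelial markers on the HYAL1-labelled and 4 of 7 on the control-labelled arrays. These background probe sets range from 4.51 to 11.1 with their base composition, so their median is no sharp limit of detection. They were all slightly higher on the HYAL1-labelled arrays, by 0.022 to 0.14.

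SULF1, which removes 6-O-sulfate groups from heparan sulfate outside the cell, was the only one of the 35 genes to pass the test, and it was higher in the control-labelled arrays. Its log2 values were 7.69, 7.70 and 7.73 on the HYAL1-labelled arrays and 8.14, 8.15 and 8.14 on the control-labelled arrays. The groups were separated by a gap many times wider than the spread inside either of them. The means were 7.71 ± 0.022 (SD, n = 3) and 8.15 ± 0.00737 (SD, n = 3), and the difference of 0.44 log2 units (1.36-fold) had an SE of 0.0296 and a 95% interval of 0.37 to 0.509 (adjusted p = 0.00374; limma with Benjamini-Hochberg adjustment over all genes). Among the 15277 genes, SULF1 stood in place 4 by p and in place 15 by the size of its difference. Of the 35 genes, 1 passed (2.86%), against 1.66% of all genes tested (1.21% higher in the control-labelled and 0.445% in the HYAL1-labelled arrays), so the share of the genes called was near the background.

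**Figure D1:**
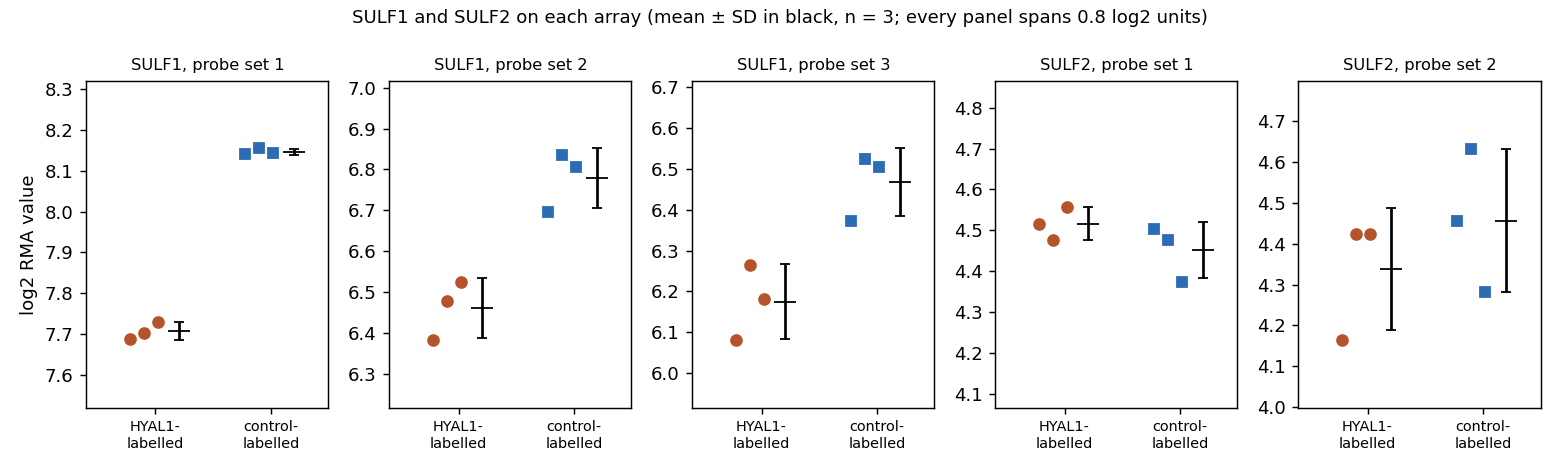
Log2 RMA values (y axis) of each probe set of SULF1 and SULF2 on the 3 HYAL1-labelled arrays (circles) and the 3 control-labelled arrays (squares), with the group mean ± SD beside them in black. All 3 probe sets of SULF1 separated the groups, whereas both probe sets of SULF2 overlapped.

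SULF1 was read by 3 probe sets, and none of them overlapped between the groups. The second one had log2 values of 6.38, 6.48 and 6.52 on the HYAL1-labelled and 6.70, 6.83 and 6.81 on the control-labelled arrays, which is 0.32 apart (SE 0.053; adjusted p = 0.0398 from limma among all 36092 single-symbol probe sets, of which 1.53% passed). The third had 6.08, 6.26 and 6.18 against 6.37, 6.52 and 6.51, a difference of 0.29 (SE 0.0604; adjusted p = 0.0665 in the same fit). These 2 dimmer probe sets therefore lay on the same side as the brightest one, and the third narrowly missed the threshold. On the HYAL1-labelled arrays the 2 dimmer probe sets had means below the background median. The third did so on the control-labelled arrays as well, so the differences of both are measured at a low level. When each array was left out in turn, SULF1 passed in 6 of 6 fits, with differences of 0.43 to 0.45 (adjusted p 0.0175 to 0.0379; limma).

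SULF2, the paralog with the same sulfatase activity, showed no such separation. Its log2 values were 4.51, 4.48 and 4.56 on the HYAL1-labelled arrays and 4.50, 4.48 and 4.37 on the control-labelled arrays, which overlapped. The difference was 0.07 with a 95% interval of -0.038 to 0.169, HYAL1-labelled minus control-labelled (adjusted p = 0.496; limma). Its other probe set ran from 4.16 to 4.42 and from 4.28 to 4.63, again overlapping and with the opposite sign. Both lay far below the background median, where differences are compressed, so the values say little about the transcript. The shifts of SULF1 and SULF2 were 0.505 apart (p = 0.10; exact permutation test). With 3 arrays against 3 this test cannot give a p under 0.10, so it cannot decide whether the shifts differ.

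Markers of other cells were read beside the SULF1 result. The lists were chosen with earlier results of these data known, so their shares describe the lists and are no independent result. Of 7 smooth muscle markers, 3 passed limma's test with higher values on the control-labelled arrays (42.9%, against 1.21% of all genes on that side). They were the transcriptional coactivator MYOCD and the actin-binding proteins CNN1 and LMOD1, by 0.34, 0.37 and 0.27. The mean log2 level of the 7 ran from 8.10 to 8.13 on the HYAL1-labelled and from 8.22 to 8.27 on the control-labelled arrays, while MYH11 and DES, which define mature smooth muscle, lay below the background median in both groups and MYOCD did so on the HYAL1-labelled arrays. MYH11 had the opposite sign to the 3, at 0.19 toward the HYAL1-labelled arrays (adjusted p = 0.124; limma). SMTN also lay toward the HYAL1-labelled arrays, by 0.07, while ACTG2 and DES lay 0.17 and 0.04 toward the control-labelled arrays (adjusted p = 0.44, 0.0518 and 0.763; limma). Among 12 fibroblast markers, 9 differences lay toward the control-labelled arrays (75.0%, against 42.7% of all genes). Of the 12, 6, all on that side, had an unadjusted p under 0.05 in limma (50.0%, against 7.72% of all genes on that side). Groups did not overlap for 9 of the 12 (75.0%, against 24.4% of all genes). Of these, 7 lay toward the control-labelled arrays (58.3% of the 12, against 10.3% of all genes), while PDGFRA and S100A4 stood 0.07 and 0.06 higher on the HYAL1-labelled arrays. The 1 that passed (8.33%, against 1.21% of all genes on that side) was COL1A1, the main chain of type I collagen. It was higher on the control-labelled side by 0.27 (SE 0.0328; adjusted p = 0.0152; limma). None of the 7 epithelial, 7 endothelial and 6 leukocyte markers measured passed in limma. CLDN4 and CSF1R, both higher on the HYAL1-labelled arrays, were the 2 with an unadjusted p under 0.05 (14.3% of the epithelial and 16.7% of the leukocyte markers, against 17.4% of all genes). The part of these shifts in the SULF1 difference was not tested, and in RNA from a whole culture, fewer cells of a kind and less RNA per cell cannot be told apart.

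**Figure D2:**
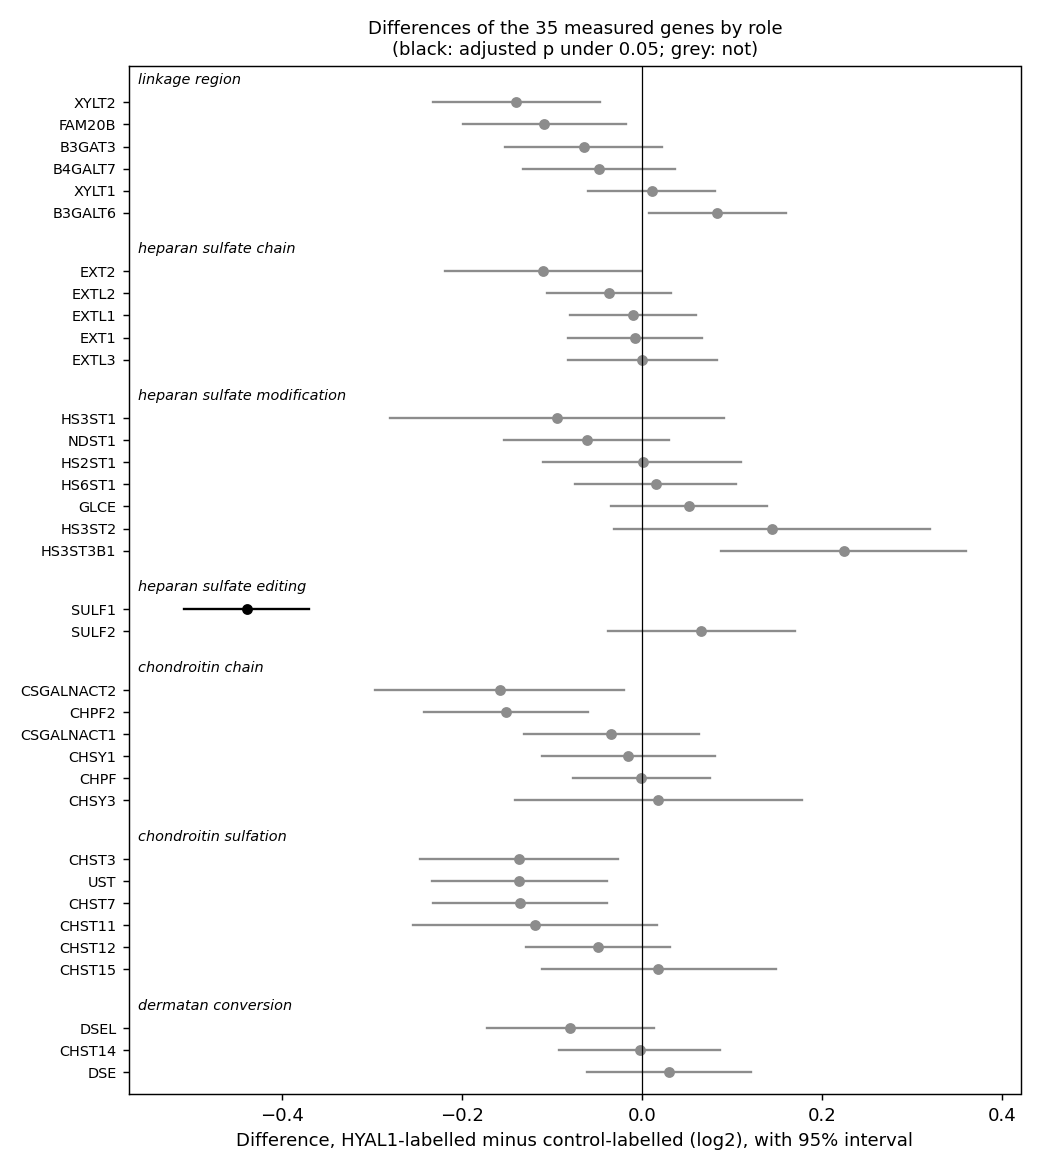
Difference between the groups on the log2 scale (x axis; HYAL1-labelled minus control-labelled) with its 95% interval for each of the 35 measured genes, grouped by role (y axis). SULF1 at -0.44 is drawn in black because its adjusted p is under 0.05, and the 34 others, all in grey, lie between -0.16 and 0.22.

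The other 34 genes did not pass, with adjusted p from 0.117 to 0.998 and differences of at most 0.22, or 1.17-fold. Their 95% intervals reached no farther than 0.36 on either side, which is 1.28-fold, so the difference of 0.44 seen in SULF1 lay outside the interval of each, as measured on this array. Standard deviations within a group ran from 0.00511 to 0.167, with a median of 0.0363 on the HYAL1-labelled and 0.0506 on the control-labelled arrays. At an unadjusted p under 0.05, 11 of 35 passed (31.4%, against 17.4% of all genes). Of these, 9 of 35 (25.7%, SULF1 included) were higher in the control-labelled arrays, where 7.72% of all genes were, and 2 of 35 (5.71%) were higher in the HYAL1-labelled arrays, where 9.69% of all genes were. Groups did not overlap for 11 of 35 (31.4%, against 24.4% of all genes), 9 genes with higher values in the control-labelled arrays (25.7%, against 10.3% of all genes) and 2 with higher values in the HYAL1-labelled arrays (5.71%, against 14.1%). In sign alone, 24 of 35 differences (68.6%) lay toward the control-labelled arrays, against 42.7% over all genes, and the median difference was -0.03, against 0.01. These shares include SULF1, no set test was made on them, and the genes in them other than SULF1 did not pass. The genes were also chosen with earlier results of these data known, so the shares are no independent result.

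**Figure D3:**
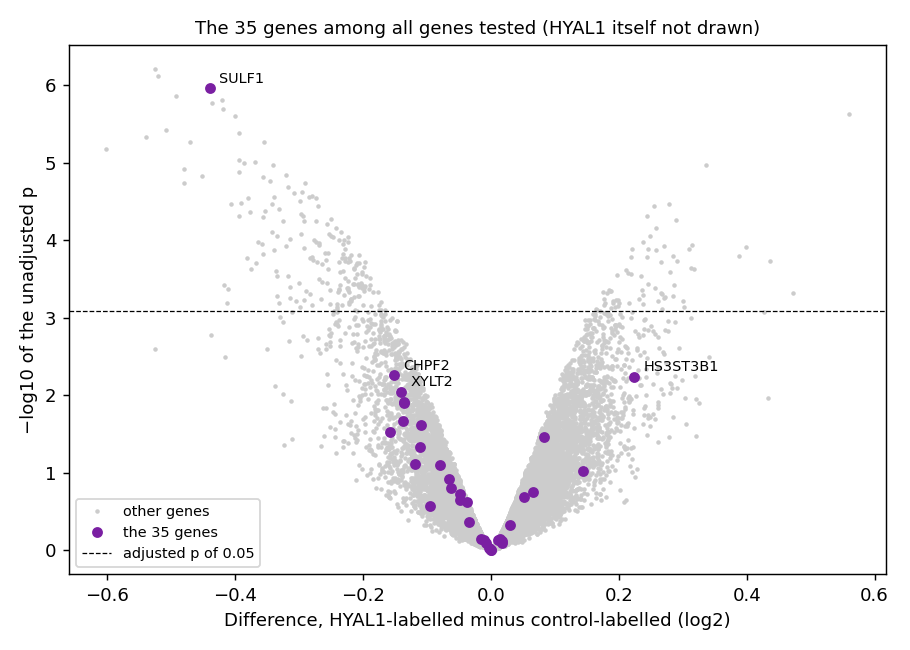
Difference between the groups (x axis; log2, HYAL1-labelled minus control-labelled) against −log10 of the unadjusted p (y axis) for all genes tested other than HYAL1, with the 35 genes as large points. SULF1 lies above the dashed line that marks an adjusted p of 0.05, and the other 34 lie below it.

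The linkage region, on which both kinds of chain are started, was measured in full. XYLT2, a xylosyltransferase that attaches the first sugar to the core protein, had log2 values of 7.82, 7.84 and 7.81 on the HYAL1-labelled and 7.89, 8.02 and 7.98 on the control-labelled arrays. The groups did not overlap, but the difference of 0.14 (SE 0.0396; adjusted p = 0.141) missed the threshold. XYLT1, which catalyses the same step, differed by 0.01 with a 95% interval of -0.0599 to 0.0809. FAM20B, the kinase that phosphorylates this xylose, had 8.84, 8.79 and 8.76 against 8.88, 8.88 and 8.96, again without overlap and with a difference of 0.11 (SE 0.0384; adjusted p = 0.214). Both FAM20B probe sets and all 3 probe sets of XYLT2 were higher in the control-labelled arrays. B3GALT6, a galactosyltransferase of the linkage, lay the other way, with 9.42, 9.45 and 9.46 against 9.34, 9.35 and 9.40, but its dimmer probe set had the opposite sign. B4GALT7 and B3GAT3, which add the first galactose and the glucuronic acid, differed by 0.05 and 0.07 toward the control-labelled arrays, with overlapping groups. All 3 probe sets of B4GALT7 lay on that side, 1 of them by 0.11 without overlap (adjusted p = 0.247; limma). The dimmer probe set of B3GAT3 had the opposite sign, at 0.03.

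Among the exostosins, which polymerise heparan sulfate, none of the 5 genes passed. EXT2, the partner of EXT1 in the polymerase, had log2 values of 9.57, 9.69 and 9.66 on the HYAL1-labelled and 9.68, 9.79 and 9.79 on the control-labelled arrays, and the groups overlapped. The difference was 0.11 (SE 0.0462; adjusted p = 0.28; limma). All 4 probe sets of EXT2 lay toward the control-labelled arrays, by 0.09 to 0.15, and the other 3 did not overlap between the groups. The lowest adjusted p among these 4 probe sets was 0.0868. EXT1 had 11.09, 11.16 and 11.13 against 11.13, 11.15 and 11.12, a difference of 0.01 with a 95% interval of -0.083 to 0.0664. By their brightest probe sets, EXTL1, EXTL2 and EXTL3 differed by at most 0.04. EXTL3, which starts the heparan sulfate chain, had an interval of -0.0828 to 0.0824. All 4 probe sets of EXTL2 lay 0.02 to 0.10 toward the control-labelled arrays, the brightest and the dimmest without overlap. The dimmest of EXTL3, below the background median, differed by 0.12 toward that side without overlap, and another by 0.02 the other way. None of these passed (lowest adjusted p = 0.166; limma).

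Of the enzymes that sulfate and epimerise heparan sulfate, 7 were measured and none passed. HS3ST3B1, a 3-O-sulfotransferase, had the largest difference among these. Its log2 values were 7.77, 7.60 and 7.82 on the HYAL1-labelled arrays and 7.52, 7.46 and 7.53 on the control-labelled arrays. The HYAL1-labelled arrays were all above the control-labelled arrays, and the difference of 0.22 had an SE of 0.058 (adjusted p = 0.118; limma). The probe set shared by HS3ST3B1 and its close paralog HS3ST3A1 gave 7.91, 7.85 and 7.84 against 7.64, 7.78 and 7.66, a difference of 0.18 on the same side (SE 0.0463; adjusted p = 0.124 among 39268 probe sets; limma). This probe set cannot tell the 2 genes apart. A dimmer probe set of HS3ST3B1 alone, below the background median, had the opposite sign with overlapping groups, and with both probe sets averaged the difference shrank to 0.07. HS3ST3B1 passed in 3 of 16 alternatives. One left out the 30% of genes with the lowest mean (adjusted p = 0.0478; limma). The others let the prior variance follow the mean level, without and with robust fitting (adjusted p = 0.0159 and 0.0113; limma). Calls over all genes also rose there, from 253 of 15277 to 673 of the 10694 kept, 1024 and 1079. HS3ST3B1 passed in none of the 6 fits without 1 array (adjusted p 0.09 to 0.277; limma).

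NDST1, which exchanges acetyl for sulfate on glucosamine and so opens the way for later modifications, differed by 0.06 by its brightest probe set. Its log2 values were 8.61, 8.72 and 8.70 against 8.73, 8.72 and 8.77, which came close to touching but did not overlap. All 4 probe sets of NDST1 lay 0.06 to 0.22 toward the control-labelled arrays without overlap, and none passed. GLCE, the epimerase that makes iduronic acid, differed by 0.05 with an interval of -0.035 to 0.138. HS2ST1 and HS6ST1, the 2-O- and 6-O-sulfotransferases, differed by 0.00 and 0.01, with intervals of -0.11 to 0.11 and -0.0747 to 0.104. HS6ST1 adds the same 6-O-sulfate that SULF1 removes, and its 5 probe sets all lay slightly toward the HYAL1-labelled arrays, by 0.00 to 0.07. Groups overlapped in all 5, several of which lay below the background median. Without control-labelled replicate 1 the brightest turned to 0.015 toward the control-labelled arrays. HS3ST1 and HS3ST2 lay below the background median in both groups, and their differences of 0.09 toward the control-labelled and 0.14 toward the HYAL1-labelled arrays had overlapping groups. Each moved with single arrays, as HS3ST1 differed by 0.02 without HYAL1-labelled replicate 1 and by 0.19 without HYAL1-labelled replicate 3, and HS3ST2 by 0.07 without control-labelled replicate 2 and by 0.22 without control-labelled replicate 3.

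**Figure D4:**
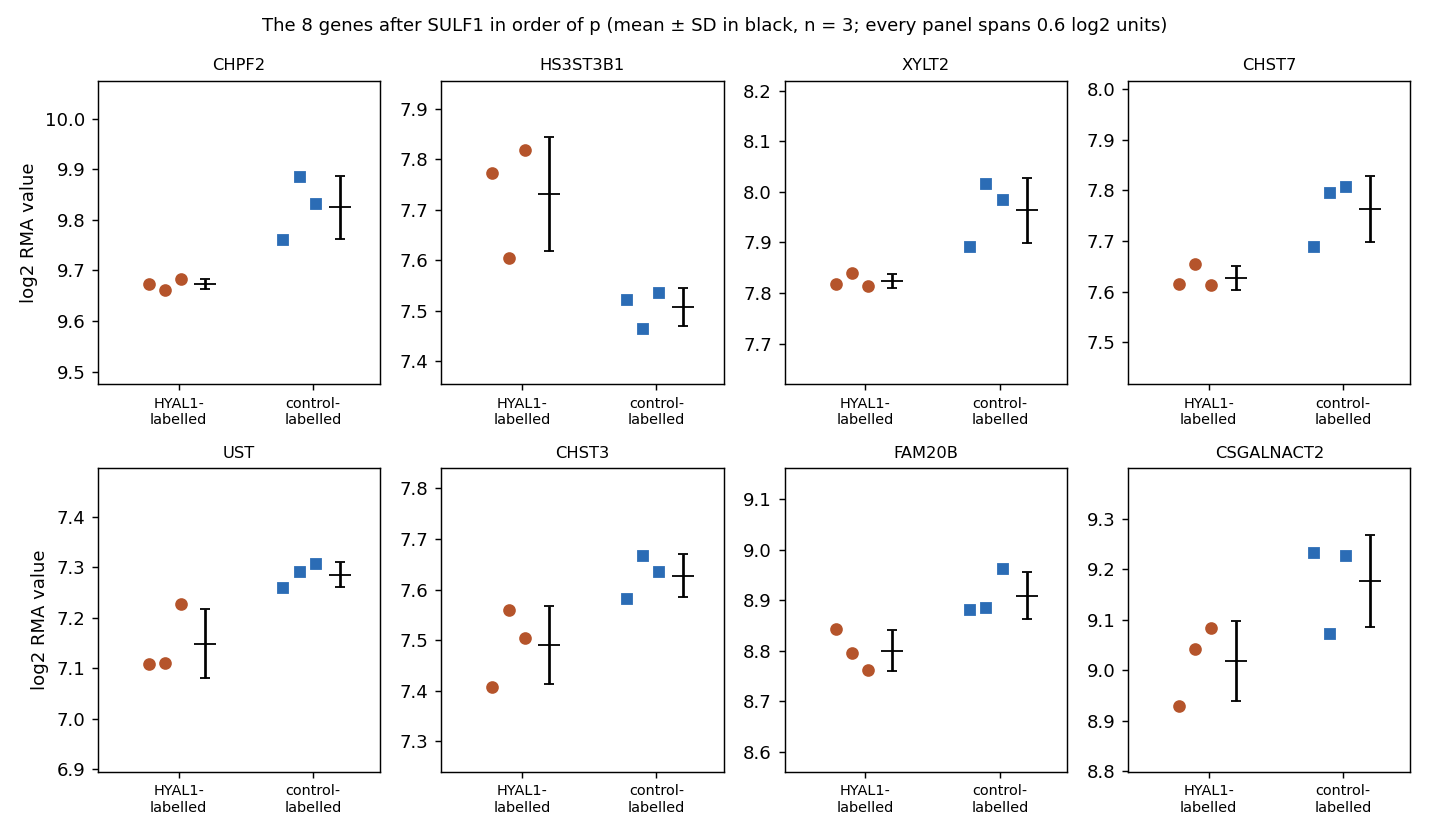
Log2 RMA values (y axis) of the 8 genes that follow SULF1 in order of p on the 3 HYAL1-labelled arrays (circles) and the 3 control-labelled arrays (squares), with the mean ± SD in black. The groups of CSGALNACT2 overlap and those of the other 7 do not, HS3ST3B1 alone is higher on the HYAL1-labelled arrays, and none passed the test.

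The 6 genes of chondroitin polymerisation held the gene with the lowest p after SULF1. CHPF2, a chondroitin polymerising factor, had log2 values of 9.67, 9.66 and 9.68 on the HYAL1-labelled arrays and 9.76, 9.88 and 9.83 on the control-labelled arrays. The groups did not overlap, and the control-labelled arrays were the more scattered. The difference was 0.15 (SE 0.0389; adjusted p = 0.117; limma), and the other probe set of CHPF2 gave 0.10 on the same side, also without overlap. CHPF2 passed in the same 3 of 16 alternatives, in which calls over all genes rose as well. These left out the 30% of genes with the lowest mean (adjusted p = 0.0463; limma) or let the prior variance follow the mean level, without and with robust fitting (adjusted p = 0.00734 and 0.00632; limma). CHPF2 passed in none of the 6 fits without 1 array (adjusted p 0.097 to 0.296; limma). CSGALNACT2, which adds the first N-acetylgalactosamine, had 8.93, 9.04 and 9.08 against 9.23, 9.07 and 9.23, a difference of 0.16 with overlapping groups (SE 0.0589; adjusted p = 0.233). Its counterpart CSGALNACT1 differed by 0.03, with an interval of -0.132 to 0.0627. CHPF and CHSY1, further parts of the polymerase, differed by 0.00 and 0.02 by their brightest probe sets, and CHSY3 lay below the background median in both groups. All 3 probe sets of CHPF lay toward the control-labelled arrays, by 0.00 to 0.10. The 1 of them at 0.06 did not overlap between the groups (adjusted p = 0.402; limma).

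The chondroitin sulfotransferases included 3 genes with similar differences. CHST7, which sulfates chondroitin at the 6-O position, had log2 values of 7.61, 7.65 and 7.61 on the HYAL1-labelled and 7.69, 7.80 and 7.81 on the control-labelled arrays. UST, which sulfates the uronic acid, had 7.11, 7.11 and 7.23 against 7.26, 7.29 and 7.31. CHST3, the other chondroitin 6-O-sulfotransferase, had 7.41, 7.56 and 7.50 against 7.58, 7.67 and 7.63. In each of these genes every control-labelled array was above every HYAL1-labelled array, with a difference of 0.14, and each missed the threshold (adjusted p = 0.159, 0.162 and 0.203; limma). CHST7 has a single probe set, while the dimmer probe sets of UST and CHST3, below the background median, did not follow (differences of 0.01 and of 0.01 and 0.02). The 4-O-sulfotransferases CHST11 and CHST12 differed by 0.12 and 0.05 toward the control-labelled arrays with overlapping groups. CHST11 lay below the background median, its other 2 probe sets had the opposite sign (0.10 and 0.07), and the mean of its probe sets turned to 0.017 toward the HYAL1-labelled arrays. CHST15, which adds a further sulfate to 4-O-sulfated units, also lay below that median and differed by 0.02 toward the HYAL1-labelled arrays. Its other 2 probe sets, below that median too, had the opposite sign. One differed by 0.04 with overlapping groups, and the other by 0.14 without overlap (adjusted p = 0.109 among all single-symbol probe sets; limma).

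The 3 genes that turn chondroitin into dermatan sulfate showed no separation. The epimerase DSE had log2 values of 10.28, 10.24 and 10.22 on the HYAL1-labelled and 10.26, 10.15 and 10.23 on the control-labelled arrays, a difference of 0.03 with an interval of -0.0619 to 0.121. Of its 4 probe sets, 2 carried identical values and count as 1 measurement. DSEL, the related epimerase, differed by 0.08 toward the control-labelled arrays (interval -0.172 to 0.0124), and CHST14, the dermatan 4-O-sulfotransferase, by 0.00 (interval -0.0924 to 0.0862).

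Over all roles, the 35 genes had 85 probe sets with a single symbol, of which 59 (69.4%) lay toward the control-labelled arrays, against 44.4% of all 36092 single-symbol probe sets. The 85 count both of the identical DSE probe sets. Of the 85, 2 passed (2.35%, against 1.53%), both of SULF1. Of the 24 genes with several probe sets, 12 had all of them on the control-labelled side, DSE and HS6ST1 had all on the HYAL1-labelled side, and 10 had probe sets on both sides. The 7 genes EXTL1, HS3ST1, HS3ST2, SULF2, CHSY3, CHST11 and CHST15 lay below the background median in both groups by their brightest probe set.

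Sulfotransferases draw on PAPS, the activated sulfate donor, and on nucleotide sugars carried into the Golgi apparatus. The lists of other pathway genes, here and below, were also chosen with earlier results of these data known, so their shares are no independent result. Of 15 measured genes of donor supply, 1 passed limma's test with higher values on the control-labelled arrays and 0 with higher values on the HYAL1-labelled ones (6.67% called, against 1.66% of all genes). At an unadjusted p under 0.05 there were 4 and 1 (26.7% and 6.67%, against 7.72% and 9.69%). PAPSS2, a synthase of PAPS, had log2 values of 10.27, 10.38 and 10.36 on the HYAL1-labelled and 10.55, 10.57 and 10.60 on the control-labelled arrays. The groups did not overlap, and the difference was 0.24 (SE 0.038; adjusted p = 0.0353). When 1 array was left out in turn it passed in none of 6 fits (adjusted p 0.0868 to 0.123, from 0.0868 without HYAL1-labelled replicate 3 to 0.123 without control-labelled replicate 3), although the difference stayed at 0.20 to 0.26. PAPSS1, its paralog, which was singled out after its values were seen, had 10.47, 10.49 and 10.51 against 10.44, 10.38 and 10.45, a difference of 0.07 toward the HYAL1-labelled arrays (adjusted p = 0.369). UAP1, which makes UDP-N-acetylglucosamine, GFPT1, the entry enzyme of the hexosamine pathway, and SLC35B3, a PAPS transporter of the Golgi membrane, stood 0.18, 0.14 and 0.12 higher on the control-labelled side and did not pass (adjusted p = 0.0595, 0.115 and 0.113).

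**Figure D5:**
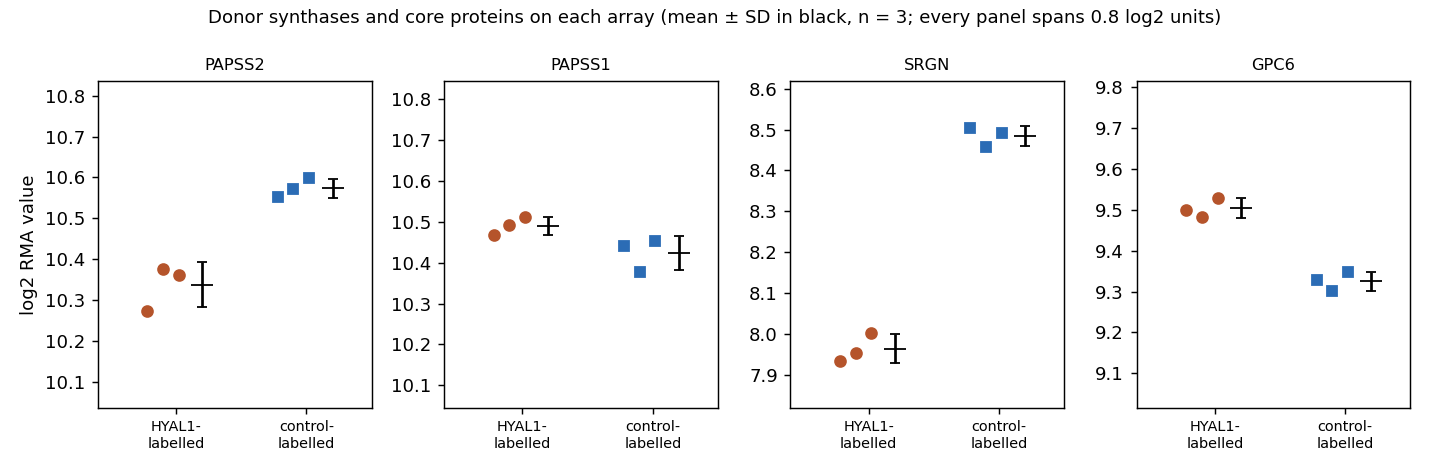
Log2 RMA values (y axis) of the PAPS synthases PAPSS2 and PAPSS1 and of the core proteins SRGN and GPC6 on the 3 HYAL1-labelled arrays (circles) and the 3 control-labelled arrays (squares), with the mean ± SD in black. PAPSS2 and SRGN are higher on the control-labelled arrays and GPC6 on the HYAL1-labelled arrays, each without overlap.

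Of 24 measured core proteins that can carry these chains, 1 was higher in the control-labelled and 1 in the HYAL1-labelled arrays (8.33% called, against 1.66% of all genes). At an unadjusted p under 0.05 there were 5 and 5 (20.8% each, against 7.72% and 9.69%). SRGN, the core of serglycin, which carries chondroitin sulfate or heparin in secretory granules, had log2 values of 7.93, 7.95 and 8.003 against 8.50, 8.46 and 8.49 and stood 0.52 higher on the control-labelled side (SE 0.0335; adjusted p = 0.00374; limma). It passed in each of the 6 fits without 1 array. GPC6, a glypican that carries heparan sulfate on the cell surface, ran the other way, with 9.50, 9.48 and 9.53 on the HYAL1-labelled and 9.33, 9.30 and 9.35 on the control-labelled arrays, which is 0.18 apart (SE 0.0314; adjusted p = 0.0443). It passed in none of those 6 fits, whose adjusted p ran from 0.112 without control-labelled replicate 1 to 0.15 without HYAL1-labelled replicate 1, and with its probe sets averaged the difference fell to 0.10 (adjusted p = 0.345). VCAN, the large chondroitin sulfate proteoglycan versican, and GPC2 stood 0.16 and 0.29 higher on the HYAL1-labelled side and did not pass (adjusted p = 0.052 and 0.0578), GPC2 at a level below the background median.

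None of 12 measured lysosomal enzymes of chain breakdown and none of 4 further synthesis enzymes passed in limma (3 and 1 had an unadjusted p under 0.05, or 25.0% of each list, against 17.4% of all genes). HEXA, a subunit of the hexosaminidases, and GALNS, a sulfatase, both of lysosomes, stood 0.15 and 0.11 higher on the HYAL1-labelled side (adjusted p = 0.115 and 0.157). SGSH, another lysosomal enzyme of the list, stood 0.09 higher on the control-labelled side without overlap (adjusted p = 0.273; limma). Of the 12 differences of lysosomal enzymes, 6 lay toward each side. PXYLP1, the phosphatase that undoes the action of FAM20B on xylose, stood 0.14 higher on the control-labelled side (adjusted p = 0.108), on the same side as FAM20B.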

How the data were processed

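Total RNA of HFL-1 cells was labelled by in vitro transcription (3′-IVT Express Kit) and hybridised to PrimeView arrays, 3 per group. The authors deposited log2 values, which the submitters' processing notes trace to Affymetrix Power Tools and RMA (their versions are not given in the sources used here). RMA corrects background, makes the distributions of the arrays equal and summarises the probes of a set, so global shifts are removed and differences at a low level are compressed. The table holds 39341 probe sets. Symbols came from the platform annotation (36097 probe sets with 1 symbol, 1397 with several, 1847 with none) and were checked in RefSeq's GRCh38.p14 genes, with 0 renamed. The probe set of HYAL1, unnamed there, was found through its values in a gene table published with the study (tolerance 0.001). The number of arrays limits the precision.

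Groups were compared with R 4.3.3 and limma 3.58.1 (lmFit and eBayes without a trend, so that all genes share 1 prior variance, two-sided, Benjamini-Hochberg adjustment over 15277 genes, threshold 0.05), after a run on simulated data. Genes named are all members, those with the lowest p with their values on each array, and up to 4 per list of other pathway genes. The members and lists were chosen with earlier results of these data known. Python 3.11.15 with pandas 2.3.3 prepared the tables, and matplotlib 3.10.9 drew the plots. The alternatives were other probe set rules, a filter on low means, quantile normalization, median centring, 2 trended priors, array weights, a test of each gene alone that a figure legend names, a block for the replicate number, and leaving out each array in turn.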

Additional observations from a re-analysis of the deposited data

How the results depend on the processing

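SULF1 kept its direction under all 16 alternatives, with differences of 0.35 to 0.45, and its call under 15 of them (adjusted p at most 0.0379). With the replicate block it had an adjusted p of 0.0527. The sources used do not say whether the replicate numbers pair the arrays. The deviations of same-numbered arrays correlated at 0.0629, -0.0229 and 0.235 for replicates 1, 2 and 3, and those of differently numbered arrays at -0.234 to 0.161. So few arrays cannot settle the question. In that block 1 gene of all, 0 of the 35 genes and 0 of the other pathway genes were called. Without the 30% of genes of lowest mean, 30 of the 35 genes were tested and 3 were called (CHPF2 and HS3ST3B1 beside SULF1). Of all 35, 4 were called where the prior variance was let follow the mean (CSGALNACT2 as well) and 5 where that was fitted robustly (XYLT2 as well). Over all genes, 253 of 15277 were called, and 673 of the 10694 kept by the filter on low means. The 2 trended priors called 1024 and 1079 of the 15277, array weights 406, the test of each gene alone 90 and the fits without 1 array 15 to 52. Of the other pathway genes, 3 of 55 were called, and 11 of the 46 kept by the filter. The 2 trended priors called 15 and 16 of the 55, averaged probe sets and renewed quantile normalization 5 each, array weights 6 and each fit without 1 array 1. The cause of these moves was not tested.

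Some differences changed sign, and none of these was called. Most were near 0, but CHST11 (0.12 toward the control-labelled arrays) and SULF2 (0.07 toward the HYAL1-labelled arrays) were not. With probe sets averaged, HYAL1-labelled minus control-labelled, CHST11 became 0.017, SULF2 -0.027, CHST15 -0.053 and HS2ST1 -0.024. With array weights EXT1 became 0.0059, CHSY3 -0.046 and EXTL3 0.0023. With renewed quantile normalization CHPF became 0.0027, HS2ST1 -0.000235 and EXTL3 0.00104, and with median centring HS2ST1 became -0.0018. In the fits without 1 array, DSE ranged from -0.0022 to 0.053, HS6ST1 from -0.015 to 0.034, CHSY1 from -0.047 to 0.0092, CHST15 from -0.041 to 0.064, EXT1 from -0.023 to 0.0076, CHSY3 from -0.047 to 0.0843, CHST14 from -0.026 to 0.022, CHPF from -0.016 to 0.019, HS2ST1 from -0.028 to 0.040 and EXTL3 from -0.025 to 0.015.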
